A study of Rattus norvegicus with 12 samples.

Results

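Whole-lung libraries from rats kept in a hypobaric chamber were compared, 6 of them from animals given oxygen-enriched gas each day and 3 from animals left in hypoxia, which makes 9 of the 12 libraries in all. The members were taken by exposure group from the sample titles. All animals were adult rats of the strain labelled SD; the sources used here give neither sex nor age in weeks. The hypoxia group (H, 3 libraries) stayed at 405 mmHg, a simulated altitude of 5000 m, for 2 weeks. The continuous group (C3, 3 libraries) stayed in the same chamber and breathed 42% oxygen for 3 h a day without a break, and the intermittent group (I3, 3 libraries) breathed it for 3 h a day in separate periods. C3 and I3 together are called reoxygenated. Their shared exposure is hypoxia for the rest of each day, which the H animals had without relief. The normoxia group (N, 3 libraries), kept at the laboratory altitude of 400 m, was used only to show where a value lay in animals without hypoxia. The study asked whether brief daily reoxygenation can counter high-altitude pulmonary hypertension.

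Low alveolar oxygen makes the small pulmonary arteries constrict, a reflex that in acute form sends blood to better ventilated parts of the lung. When hypoxia lasts, the arterial wall thickens as smooth muscle and matrix are laid down, and pressure in the pulmonary circulation rises. Cells sense low oxygen largely through the hypoxia-inducible factors, transcription factors whose alpha subunits are destroyed when oxygen is plentiful, so that even short periods of oxygen can in principle change what they drive.

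The deposited table lists Ensembl rat transcripts without gene names, and 0 of its 17254 identifiers could be matched among the 47357 rat genes of the reference table. The transcripts are therefore described by identifier and level, without a function, and the labelled tissue was not checked against lung marker genes. Transcripts of 1 gene share reads that the software divides by estimation, so a difference between transcripts need not be a difference of the gene. In whole lung, fewer cells of a type and less RNA per cell cannot be told apart. Nothing in the labels ties each library to its own animal, so the p-values refer to the spread among libraries, part of which may be technical.

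The 9 libraries were alike in gross composition. Spearman correlations across the 15435 transcripts that passed the filter (at least 1 FPKM, fragments scaled to transcript length and library size, in at least 3 of 12 libraries) were 0.903 to 0.923 between H and reoxygenated libraries, and 0.904 to 0.925 within groups. The listed values summed to 338622 ± 5655 in H (SD, n = 3) and 331093 ± 4953 in the reoxygenated libraries (SD, n = 6), a difference of -7529 with p = 0.0952 in an exact two-sided permutation test. The number of transcripts listed at 0 was 520 ± 21.2 in H and 542 ± 24.5 in the reoxygenated libraries (exact two-sided permutation p = 0.286; the smallest p this design allows is 0.0238). The first principal component (16.0% of the variance) put H replicate 3 (-35.5) and I3 replicate 3 (-40.9) apart from the other 7 libraries, which ranged from -8.98 to 24.9. H replicate 1 lay apart on the second (13.2%), at -41.9, against -17.2 to 26.8 for the other 8 libraries. On the first component H libraries lay among the reoxygenated ones. On the second, 5 of the 6 reoxygenated libraries (-0.231 to 26.8) lay above all 3 H libraries (-41.9, -6.66 and -13.6), and I3 replicate 2 (-17.2) did not. Depth is unknown, since the table holds no counts.

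Few transcripts differed between reoxygenated and hypoxia-only lungs. In reoxygenated lungs 3 transcripts were higher and 3 lower at an adjusted p below 0.05 (limma on log2(FPKM + 1), Benjamini-Hochberg adjustment over all transcripts), which is 0.0389% of those tested. Before adjustment, 363 were higher and 515 lower at p below 0.05, together 5.69% of those tested, where 771.75 transcripts would pass by chance. The 6 called transcripts differed by 1.08 to 4.73 on the log2 scale in either direction. Of the 6, ENSRNOT00000083577, ENSRNOT00000066362 and another that fell passed the filter only with the group in which they were high, as described below. The lower and upper quartiles of all differences were -0.15 and 0.12, and the median was -0.01. The standard error of a difference had a median of 0.18, and 0.08 and 0.63 at its 5th and 95th percentiles.

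**Figure D1:**
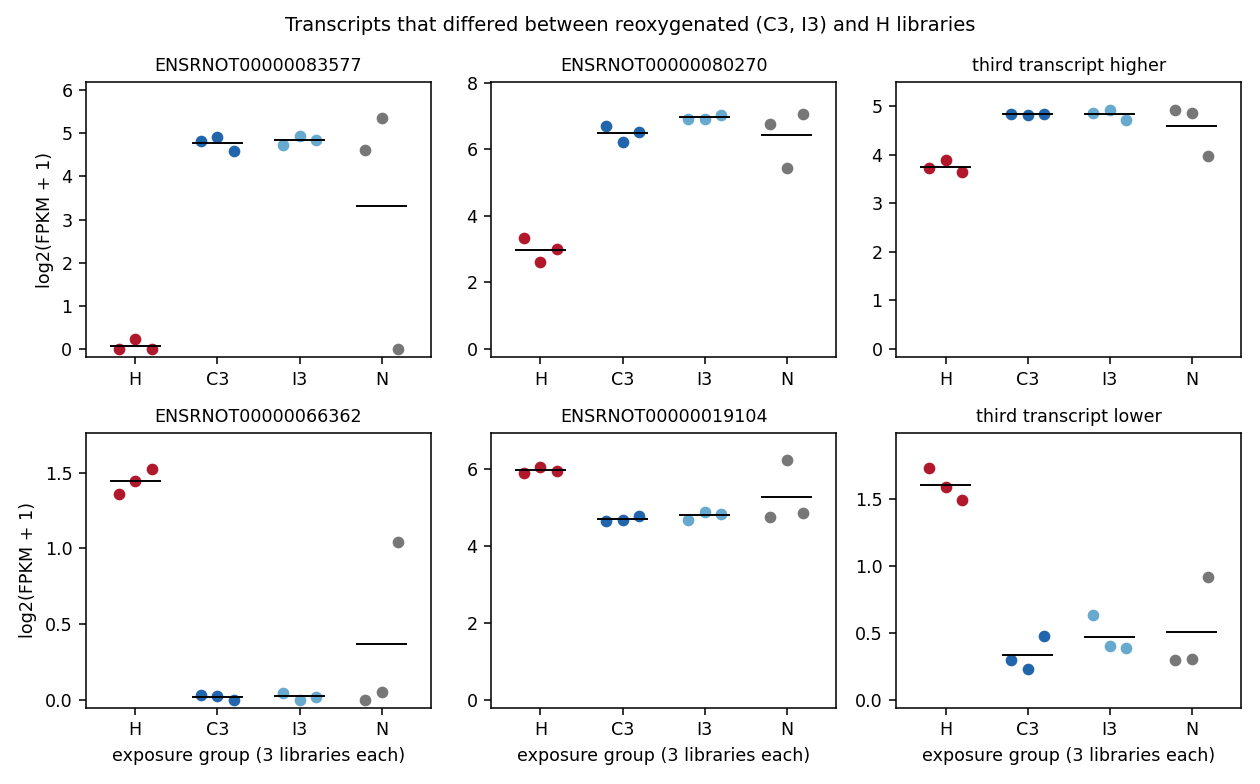
Level of the 6 called transcripts in each library as log2(FPKM + 1), with points for libraries and a line for the mean of each group of 3. The H libraries lie clear of all 6 reoxygenated libraries in each panel, and the N libraries spread more widely: in 4 panels 1 N library lies nearer to the H libraries than to the reoxygenated ones. The transcripts were called on the H and reoxygenated libraries, where a call favours small spread, and not on N.

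The largest rise was that of ENSRNOT00000083577. It was listed at 0, 0.171 and 0 FPKM in H replicates 1 to 3. The C3 libraries held 27.5, 29.0 and 23.0 FPKM, and the I3 libraries held 25.4, 29.7 and 27.8. Every reoxygenated library thus stood far above every H library, in a narrow band under both schedules. The difference was 4.73 ± 0.11 on the log2(FPKM + 1) scale (SE), with an adjusted p of 1.07e-07 in limma. The size rests on the pseudocount, and it was 7.60 ± 0.30 with a pseudocount of 0.1. The N libraries held 23.6, 39.7 and 0 FPKM, so N replicate 3 was listed at 0 like 2 of the H libraries. At least 1 FPKM was reached by the reoxygenated libraries and N replicates 1 and 2 alone. The transcript thus passed the filter only with the group in which it was high. When all 12 libraries were fitted with 1 mean per group, the spread in N entered the error and the call ended (adjusted p = 0.586 in limma).

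ENSRNOT00000080270 was the other transcript with a large rise. The H libraries held 8.99, 5.16 and 6.98 FPKM, against 103, 73.6 and 90.7 for C3 and 119, 120.2 and 131 for I3. The lowest reoxygenated library held 73.6 FPKM and the highest H library 8.99. The difference was 3.74 ± 0.21 on the log2 scale, with an adjusted p of 0.000151 in limma. The N libraries held 108, 42.4 and 132 FPKM, all nearer to the reoxygenated mean than to that of H on the log2 scale. Of the 6 called transcripts, it is the one whose call held under all 19 alternatives, with adjusted p-values of 0.0001 to 0.00843 in limma.

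The third transcript that rose had smaller and very even values. It stood at 12.3, 13.8 and 11.4 FPKM in H, against at 27.7, 27.2 and 27.7 in C3 and at 28.1, 29.3 and 25.3 in I3. The SD over the 6 reoxygenated libraries was 0.07 on the log2 scale, against a median of 0.24 over all transcripts tested. The difference was 1.08 ± 0.08 on the log2 scale, with an adjusted p of 0.00112 in limma. A difference of this size needed a small spread to pass, so the even values are part of why it was called. N replicates 1 and 2 held 29.4 and 28.2 FPKM, within or just above the reoxygenated band, and N replicate 3 held 14.6, near the H libraries. Its call ended in the fit over all 12 libraries (adjusted p = 0.303 in limma).

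Among the transcripts that fell, ENSRNOT00000019104 was the most abundant. The H libraries held 58.6, 64.9 and 60.7 FPKM, the C3 libraries 24.1, 24.3 and 26.2, and the I3 libraries 24.5, 28.7 and 27.3. Its mean was 61.4 ± 3.19 FPKM in H (SD, n = 3) and 25.8 ± 1.86 in the reoxygenated libraries (SD, n = 6). The groups did not overlap, and the difference was -1.22 ± 0.08 on the log2 scale with an adjusted p of 0.000486 in limma. The N libraries split here as well, with 25.9 and 28.0 FPKM in replicates 1 and 3 and 73.5 in replicate 2. In the fit over all 12 libraries its adjusted p was 0.675 in limma.

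The remaining transcripts that fell were low. ENSRNOT00000066362 stood at 1.57, 1.72 and 1.88 FPKM in H, against 0.0213, 0.0191 and 0 in C3 and 0.0336, 0 and 0.0142 in I3. It was near 0 in every reoxygenated library. At least 1 FPKM was reached by the 3 H libraries and N replicate 3 alone, so it entered the test through the group in which it was high, and a transcript that did so had to be lower elsewhere. The difference was -1.42 ± 0.13 on the log2 scale (adjusted p = 0.00477 in limma), and N replicates 1 to 3 held 0, 0.0378 and 1.06 FPKM. The call ended with a pseudocount of 0.1 (difference -3.99, adjusted p = 0.163 in limma), with H replicate 3 and I3 replicate 3 left out together (0.0791) and in the fit over all 12 libraries (0.205), and in 1 more setting given in the closing section.

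The third transcript that fell held 2.34, 2.01 and 1.83 FPKM in H, against 0.230, 0.170 and 0.390 in C3 and 0.552, 0.320 and 0.305 in I3. The highest reoxygenated library lay well below the lowest H library. Only the 3 H libraries reached 1 FPKM, so this transcript too passed the filter through the group in which it was high. The difference was -1.21 ± 0.14 on the log2 scale, with an adjusted p of 0.0365 in limma. N replicates 1 to 3 held 0.231, 0.233 and 0.892 FPKM, all nearer to the reoxygenated mean on the log2 scale. Of 18 alternatives, 6 called it. It lost the call without any one H library (adjusted p 0.0801, 0.127 and 0.0882 without replicates 1, 2 and 3 in limma), any one C3 library (0.0582, 0.0588 and 0.0818), I3 replicate 2 (0.0823) or I3 replicate 3 (0.118), with a difference of -1.14 to -1.26 throughout. It also lost it with a pseudocount of 0.1 (0.163), without both H replicate 3 and I3 replicate 3 (0.136) and in the fit over all 12 libraries (0.159), and in 1 more setting given in the closing section.

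Where the N libraries lay is a description, since the 6 transcripts were chosen on the H and reoxygenated values. N replicate 1 was nearer to the reoxygenated mean than to the H mean for 6 of 6, N replicate 2 for 5 of 6 and N replicate 3 for 3 of 6. The spread in N was wide for each: the SD over N libraries was 0.36 to 2.90 on the log2 scale, against 0.02 to 0.31 over the 6 reoxygenated libraries and 0.07 to 0.35 in H. A call favours small spread in H and reoxygenated libraries but not in N. This comparison therefore does not show that N varied more in general. Whether the spread in N has a part in the differences between H and reoxygenated libraries was not tested.

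C3 and I3 share the H libraries as their reference, so their changes in these 6 transcripts are given side by side. The 6 were called in the pooled fit, which counts a difference between the schedules as spread. Their likeness in C3 and I3 is therefore partly a result of that choice. ENSRNOT00000083577 differed from H by 4.70 in C3 and by 4.76 in I3 on the log2 scale. For ENSRNOT00000019104 the differences were -1.27 in C3 and -1.17 in I3, and for ENSRNOT00000066362 they were -1.42 in each. The direct difference, I3 minus C3, was 0.06 for ENSRNOT00000083577, with a 95% interval of -0.23 to 0.35, and 0.10 for ENSRNOT00000019104, with an interval of -0.10 to 0.31. For ENSRNOT00000066362 the interval was -0.35 to 0.36, and for the third transcript higher and the third lower it was -0.22 to 0.22 and -0.24 to 0.52. ENSRNOT00000080270 differed from H by 3.50 in C3 and 3.98 in I3. Its I3 libraries all lay above its C3 libraries, and I3 and C3 did not overlap for 15.8% of all transcripts tested. The I3 mean was higher than the C3 mean by 0.48 on the log2 scale, with an interval of 0.04 to 0.91 (adjusted p = 0.627 in limma).

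**Figure D2:**
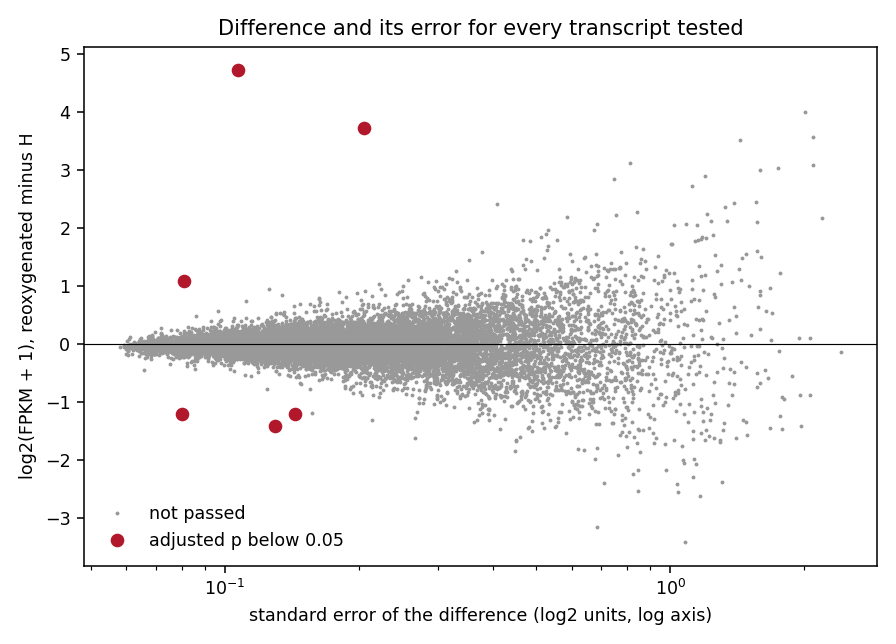
Difference between reoxygenated and H libraries on the log2(FPKM + 1) scale (vertical axis) against its standard error (horizontal log axis) for each of the 15435 transcripts tested. The 6 called transcripts (red) have standard errors of 0.08 to 0.21, while most differences of similar size sit at larger errors to the right.

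Many transcripts that did not pass had mean differences as large as the smallest of the called ones, 1.08. None of them reached the largest called difference, 4.73. A difference of at least 1 on the log2 scale was seen for 167 transcripts higher and 184 lower in reoxygenated libraries, and 3 of each were called. Reoxygenated and H libraries did not overlap for 14 of the 167 and 19 of the 184, against 3.05% of all transcripts tested. A difference of at least 1 itself favours no overlap. In 41 of the 167 and 46 of the 184, 1 reoxygenated library lay within or beyond the H range, and in 112 and 119 more than 1 did. The median SD over the 6 reoxygenated libraries was 1.07 for the higher and 1.14 for the lower ones, more than 4 times the 0.24 of all transcripts. The choice of differences of at least 1 also favours transcripts with a wide spread, so part of this excess comes from the choice.

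In some of these transcripts a single library stood with the opposite group. They were chosen for that after their values were seen, so no p-value without that library is given. One was listed at 0 in all 3 H libraries and at 12.3, 0 and 12.01 FPKM in C3, 12.1, 13.1 and 13.0 in I3, and 13.4, 14.2 and 12.6 in N. Only C3 replicate 2 among the other 9 libraries was also at 0. Its difference of 3.13 ± 0.81 had an adjusted p of 0.707 in limma. Another held 35.6, 27.8 and 34.4 FPKM in H, against 1.71, 20.5 and 0.749 in C3 and 1.76, 1.501 and 2.94 in I3. C3 replicate 2 was again the exception, and the N libraries held 2e-06, 1.06 and 1.54 FPKM. Its difference was -3.16 ± 0.68 (adjusted p = 0.622 in limma). One more held 0.174, 55.0 and 49.1 FPKM in H and 0.132 to 1.32 in the reoxygenated libraries, so here H replicate 1 stood with the reoxygenated libraries. Its difference was -3.42 ± 1.08 (adjusted p = 0.803 in limma).

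The transcript with the largest difference that did not pass had libraries at high and low levels within 3 of the 4 groups. It held 0.879, 0.518 and 0.643 FPKM in H, against 1.33, 309 and 266 in C3 and 2.06, 0.968 and 329 in I3. The N libraries held 309.9, 1.76 and 1.41 FPKM. The difference of 4.01 ± 2.01 had an adjusted p of 0.869 in limma.

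Such 2-level patterns were common, by a definition chosen after these values were seen. A transcript was counted when the largest gap between neighbouring libraries, among the 9, was at least 0.5 on the log2 scale, exceeded the range on either side of it and left at least 2 libraries on each side. This held for 1647 transcripts, 10.7% of those tested. H libraries stood on both levels in 1160 of them and reoxygenated libraries in 1590. Most ways of splitting 9 libraries with at least 2 on each side put both kinds of library on both levels. These counts are therefore largely set by the definition and do not show whether the levels follow exposure. The levels coincided with H and reoxygenated for 9 transcripts, 4 higher and 5 lower in reoxygenated libraries, and these include the 6 called ones. A call itself favours such a split. Of the 351 transcripts that differed by at least 1 on the log2 scale, 221 had 2 levels, with reoxygenated libraries on both levels in 191. Here too the choice favours wide spread, and most possible splits put reoxygenated libraries on both levels.

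The next transcripts by p-value came close to the threshold, and their N libraries were even. One was higher at 6.89, 5.77 and 5.29 FPKM in H, against 10.7, 11.6 and 11.1 in C3 and 13.4, 15.0 and 13.3 in I3, with 15.4, 15.3 and 16.1 in N. Its difference was 0.95 ± 0.13 on the log2 scale. The other was lower at 10.3, 11.7 and 11.3 FPKM in H, against 4.24, 3.76 and 2.97 in C3 and 5.52, 4.92 and 4.84 in I3, with 3.28, 3.83 and 3.68 in N. Its difference was -1.18 ± 0.16. In both, the H and reoxygenated libraries did not overlap, the schedules lay at slightly different levels, and the adjusted p was 0.0649 in limma. When each of the 9 libraries was left out in turn, the first passed only without H replicate 1 (adjusted p = 0.0415 in limma; 0.0582 to 0.22 in the other 8) and the second only without C3 replicate 3 (0.0454; 0.0546 to 0.22 in the other 8). Counted more widely, 8 transcripts had an adjusted p below 0.1 and 16 below 0.25.

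Reoxygenated and H libraries did not overlap for 177 transcripts higher and 293 lower in reoxygenated lungs, together 3.05% of those tested. The share rose with the level: it was 1.93% of the 881 transcripts with a mean below 1 FPKM over the 9 libraries, 2.61% of 8309 at 1 to 10 FPKM, 3.66% of 5762 at 10 to 100 FPKM, and 5.18% of 483 at 100 FPKM or more. The median standard error fell from 0.27 in the lowest of these bands to 0.13 in the highest. Lower transcripts outnumbered higher ones in every band, with 12 and 5, 120 and 97, 143 and 68, and 18 and 7 from the lowest band to the highest. The 6 calls fell in 2 bands, with 2 below 1 FPKM and 4 at 10 to 100 FPKM. The sum of listed values was also lower in the reoxygenated libraries, as given above, and its part in the excess of lower transcripts was not tested. After median ratio scaling the median difference was 0.00, and the same 6 transcripts were called.

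Transcripts listed at 0 throughout 1 group were looked for next. Of the transcripts tested, 45 were listed at 0 in all 3 H libraries and 1 in all 6 reoxygenated ones. These counts are not comparable, since the second asks for 0 in 6 libraries, not 3, and leaves only 6 of 12 libraries, not 9, through which a transcript could pass the filter. Of the 45, 0 reached 1 FPKM in all 6 reoxygenated libraries and 3 were above 0 in all 6. The converse, at least 1 FPKM in all H libraries and 0 in all reoxygenated ones, was found for 0 transcripts. A listed 0 can also stand for a failed estimate.

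**Figure D3:**
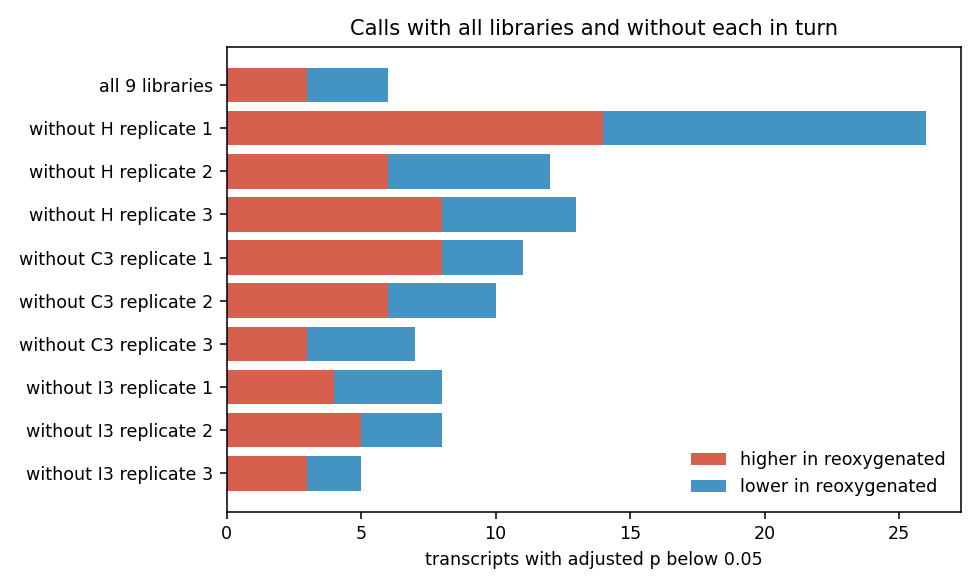
Number of transcripts with an adjusted p below 0.05 in limma (horizontal axis) with all 9 libraries and without each library in turn, higher (red) and lower (blue) in reoxygenated libraries. The count is 6 with all libraries and ranges from 5 to 26 when 1 is left out.

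The count of calls depended on single libraries. Leaving out H replicate 1 gave 26 calls, H replicate 2 gave 12, H replicate 3 gave 13, C3 replicate 1 gave 11 and C3 replicate 2 gave 10. It was 7 without C3 replicate 3, 8 without I3 replicate 1 or 2, and 5 without I3 replicate 3. Of the original 6, all but the third transcript that fell were called in each of these fits, and that one was called without I3 replicate 1. Fitted with 1 mean for each of H, C3 and I3, the 9 libraries gave 4 higher and 6 lower, which include the original 6. Fitted with N as well, they gave 2 higher and 1 lower, of which only ENSRNOT00000080270 was among the 6.

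Pooling treats the schedules as 1 group, and they were therefore also compared with each other in the same 9 libraries. Between I3 and C3, 1 transcript was higher and 4 lower in I3 at an adjusted p below 0.05 in limma, 0.0324% of those tested. Before adjustment, 585 were higher and 586 lower, 7.59% of those tested, where 771.75 transcripts would pass by chance. The libraries of I3 and C3 did not overlap for 15.8% of all transcripts tested. This share is not comparable with the 3.05% for reoxygenated and H libraries. Groups of 3 and 3 libraries avoid overlap by chance more often than groups of 6 and 3. The 5 called transcripts were among those without overlap. Of these 5, 0 passed between pooled reoxygenated and H libraries, where their adjusted p-values were 0.869 to 0.908 in limma. The pooled fit counts the gap between I3 and C3, for which the 5 were chosen, as spread. It could therefore hardly call them. For 3 of them H and I3 lay at one level and C3 at another, and for 2 of them H and C3 lay together and I3 apart.

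ENSRNOT00000018864 was higher in I3. It held 57.9, 57.4 and 63.4 FPKM in I3 and 9.06, 8.32 and 10.9 in C3, against 66.8, 62.2 and 62.3 in H. The I3 libraries stood beside those of H, and the C3 libraries well below. I3 minus C3 was 2.55 ± 0.11 on the log2 scale, with an adjusted p of 0.000117 in limma. The N libraries held 70.4, 9.14 and 11.3 FPKM, 1 at the level of H and I3 and 2 at that of C3, and with N in the fit the adjusted p was 0.638. The next transcript higher in I3, ENSRNOT00000046539, did not pass: it held 15.2, 14.9 and 20.4 FPKM in I3, 7.36, 5.80 and 6.88 in C3, and 13.9 to 18.8 in H and N (adjusted p = 0.0802 in limma).

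ENSRNOT00000083957 was lower in I3. It held 9.14, 9.07 and 10.3 FPKM there and 41.1, 40.4 and 36.5 in C3, against 45.8, 45.1 and 46.1 in H. I3 minus C3 was -1.94 ± 0.09 on the log2 scale, with an adjusted p of 0.000117 in limma. The N libraries again stood on both sides, at 11.5, 12.8 and 40.7 FPKM, and with N in the fit the adjusted p was 0.376. For ENSRNOT00000089040 the C3 libraries were the ones apart. They held 22.6, 22.2 and 19.3 FPKM, while I3 held 5.29, 6.23 and 7.02 and H held 6.94, 7.73 and 8.16. I3 minus C3 was -1.64 ± 0.12 on the log2 scale (adjusted p = 0.00512 in limma), and the N libraries held 5.88, 22.6 and 29.4 FPKM. With N in the fit its adjusted p was 0.682.

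The other pair of transcripts lower in I3 showed the same kinds of pattern. One stood at 17.5, 19.5 and 16.9 FPKM in C3, at 4.47, 5.25 and 6.55 in I3, and at 5.92 to 6.79 in H, with N at 4.86, 10.4 and 20.3. Its I3 minus C3 difference was -1.57 ± 0.14 (adjusted p = 0.0107 in limma), and 0.638 with N in the fit. The other was at 10.5, 9.42 and 7.94 FPKM in I3 and at 28.7, 29.1 and 29.7 in C3, with 25.8 to 36.6 in H and an even 27.6 to 32.8 in N. Its difference was -1.56 ± 0.15 (adjusted p = 0.0159 in limma), and with N in the fit it kept its call (0.00862). This last transcript lost its call without C3 replicate 1 (adjusted p = 0.0505 in limma) and without C3 replicate 2 (0.0506). For it, for the other of this pair and for ENSRNOT00000089040 a further setting that ended the call is given in the closing section. Instead of 5, the calls numbered 14 without H replicate 1, 11 without C3 replicate 1 or 2, 15 without C3 replicate 3, 17, 19 and 9 without I3 replicates 1, 2 and 3, and 1 with N in the fit.

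**Figure D4:**
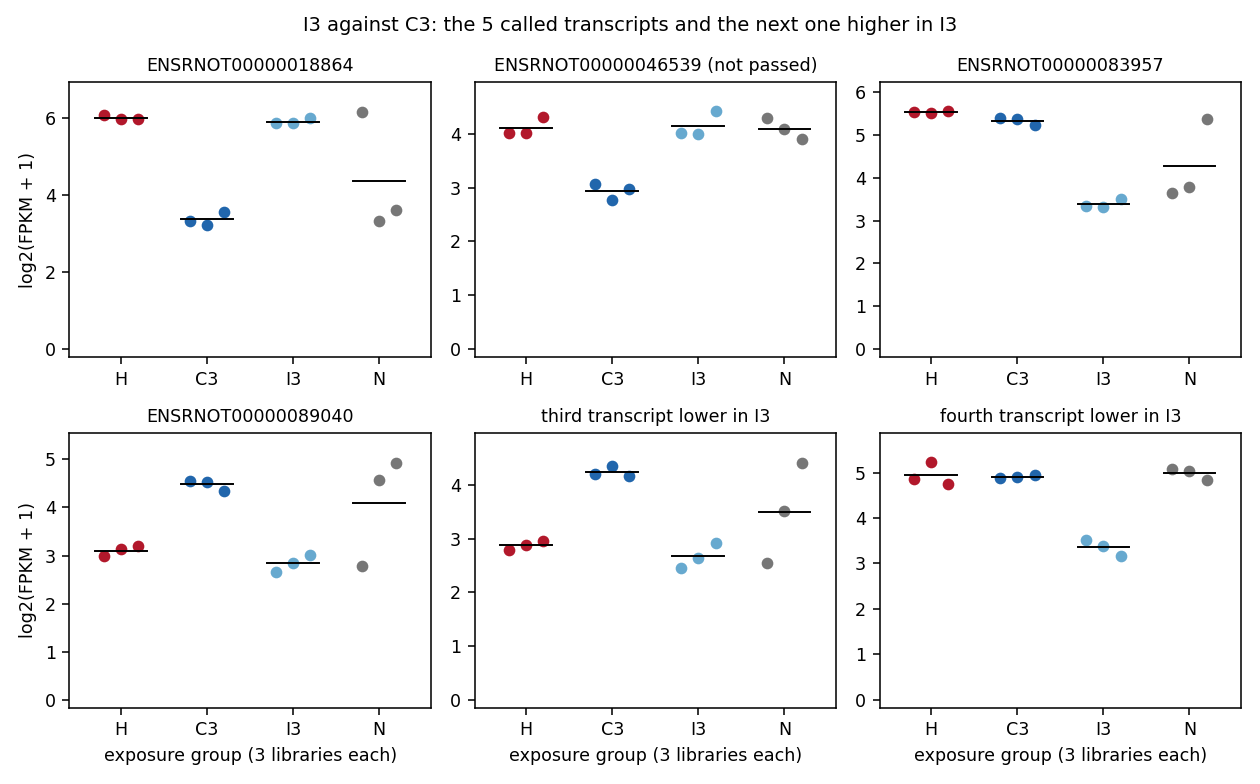
Level in each library, as log2(FPKM + 1), of the 5 transcripts called between I3 and C3 and of ENSRNOT00000046539, which did not pass; lines are means of 3 libraries. Within C3 and within I3 the libraries lie close together, and in 4 of the 5 called transcripts the N libraries spread across both levels. The 5 were called without the N libraries in the fit.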

How the data were processed

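Whole-lung RNA libraries were made by fragmentation, random priming and dUTP second-strand synthesis, per the labels' protocols. The submitters' processing notes name cutadapt, HISAT2 2.0.5 and StringTie, and a human build that cannot be that of rat transcripts; no coordinates are given. The authors deposited 1 table of 17254 transcripts without a unit, taken here as FPKM because StringTie is named; TPM of a filtered list cannot be told apart. Whole reads could not be recovered: at most 4.90% of ratios of values below 0.2 in any of 66 library pairs shared 1 bin of log2 width 0.02.

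Values were used as log2(FPKM + 1), without scaling, for 15435 transcripts with at least 1 FPKM in at least 3 of 12 libraries; 1819 were left out. Fold changes on this scale understate the change of low transcripts. Limma 3.58.1 in R 4.3.3 fitted 2 means, reoxygenated and H, over 9 libraries (7 residual degrees of freedom), and 1 mean per group for I3 against C3 (6), with a mean-variance trend. The fit was checked on simulated data. Without gene names, the planned gene and marker lists could not be used. In each comparison the 2 called transcripts with the largest change in each direction and no overlap are named, or the next by p where fewer were called. The comparison, lists and alternatives were chosen with earlier results of these data known.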

Additional observations from a re-analysis of the deposited data

Results flagged for a closer look

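By the direct test of I3 against C3 in limma, the libraries of the 2 schedules differed for 5 transcripts. The difference, I3 minus C3 on the log2 scale, was 2.55 for ENSRNOT00000018864, -1.94 for ENSRNOT00000083957 and -1.64 for ENSRNOT00000089040. It was -1.57 and -1.56 for the remaining pair. In 4 of the 5, all but the last, the N libraries, which had no reoxygenation, spread across both levels, and these 4 calls ended with N in the fit (adjusted p 0.376 to 0.682 in limma). Among the 6 reoxygenated libraries, none lay far from the rest by Dixon's criterion for any of the 6 transcripts called against H, for the sum of listed values or for the number of values at 0. For the 6 transcripts this was partly set in advance, since a call favours small spread among these libraries.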

How the results depend on the processing

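Against H, the count of 6 was 4 with a pseudocount of 0.1, with a filter at 5 FPKM or with a replicate block, 6 with no filter, median ratio scaling, no mean-variance trend or array weights, 6 (4 of them among the original 6) without both H replicate 3 and I3 replicate 3, and 10 with 1 mean per group over the 9 libraries. It was 3 with 1 mean per group over all 12 libraries and 5 to 26 without 1 library. For I3 against C3 the count of 5 was 8 with a filter at 5 FPKM or array weights, 14 without both H replicate 3 and I3 replicate 3, 3 with the replicate block, 15 with only the 6 libraries of C3 and I3, 1 over all 12 libraries and 7 to 19 without 1 library. What causes these shifts in count was not tested. The low transcripts that fell had no value under the filter at 5 FPKM, which removes them. Directions did not reverse in any alternative run. Replicate numbers are parts of library codes: same-numbered libraries deviated together with r of -0.03 to 0.13 over 9 pairs, and 3 of 9 correlated best with their own number, so they were not taken as pairs. Under the block 4 of the 6 calls against H and 2 of the 5 for I3 against C3 were kept. Those that ended, with their adjusted p in limma under the block, were ENSRNOT00000066362 (0.0693) and the third transcript that fell (0.246) against H, and ENSRNOT00000089040 (0.066) and the other pair lower in I3 (0.066 and 0.0814). The differences in the sum of values and in the number of zeros kept their sign and did not pass in 11 alternatives each, but their size moved: that of the sum, -7529, ranged from -10737 without H replicate 1 to -3130 without the 100 transcripts with the highest mean, and that of the zeros, 22, from 10.2 among transcripts past the filter (12.3 without H replicate 2) to 33.3 without H replicate 1; without 1 H library the exact test cannot reach 0.05. Depth is unknown, and 3 libraries in H limit the precision.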
